A study of Mus musculus with 2 samples.

Results

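The spots described here are the positions of a mouse heart section in which transcripts of Ccl21a were captured. Ccl21a encodes a chemokine that lymphatic endothelial cells make. The spots were chosen by their Ccl21a count, so that count is given below as a description only. A spot entered when it held at least 500 unique molecular identifiers (UMIs, 1 per captured RNA molecule) in total and at least 1 of them came from Ccl21a, summed over all rows of that name. Of 1662 spots kept, 54 met this rule and 1608 did not. In the section labelled PD1 KO 15 of 851 spots held Ccl21a, and in the section labelled PD1 Het 39 of 811 did. Another 8 spots of the PD1 KO section and 1 of the PD1 Het section had fewer than 500 UMIs and were left out.

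Each section came from a C57BL/6 heart whose left anterior descending coronary artery was tied at postnatal day 2, and which was taken 7 days later. The PD1 KO heart is labelled PD1 -/-, and the PD1 Het heart, which still carries 1 intact PD1 allele, is labelled PD1 +/-. Both groups had the infarct, neither was wild type, and no uninjured heart was analysed here. Frozen hearts were cut across at 10 µm, 200 µm below the tie, on Visium slides, which tag the RNA under each spot with the barcode of that spot. There was 1 section per genotype, so no difference between genotypes or between sets of spots has a replicate check and no test was made. Intervals below are 95% and cover counting error only, and spots of a section are not replicates. A spot is a small region that can hold several cells, and fewer cells of a type cannot be told apart from less RNA per cell.

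Lymphatic capillaries begin blind in the tissue, take up fluid, proteins and leukocytes, and empty into collecting vessels that return them to the blood. Their endothelium secretes CCL21, which draws dendritic cells and T cells that carry the receptor CCR7 into the vessel. In the heart most lymphatic vessels run close to the outer surface, under the epicardium, and they grow after infarction. The transcription factor Prox1 sets the lineage, and VEGF-C drives growth through the receptor VEGFR3, which Flt4 encodes.

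The total was 23520499 UMIs over the kept spots of the PD1 KO section and 12814494 over those of the PD1 Het section. The spots with Ccl21a held 435313 UMIs and the spots without it 23085186 in the PD1 KO section, and 779684 against 12034810 in the PD1 Het section. In the PD1 KO section the median spot with Ccl21a had 25820 UMIs and the median spot without it 27143.5. The same medians were 17830 and 15356.5 in the PD1 Het section. Mitochondrial transcripts made up 16.7% and 15.8% of UMIs in PD1 KO spots with and without Ccl21a, and 28.6% and 25.4% in the PD1 Het ones. The sections share 225 spot barcodes, as arrays of 1 design do. Pdcd1, which encodes PD-1, had 0 UMIs in both sections, which allows up to 0.128 CPM (UMIs per 1000000 UMIs counted) in the PD1 KO section and 0.234 CPM in the PD1 Het section, and so checks neither label. The sections also differed in Xist, with 1 UMI in the PD1 KO section and 541 in the PD1 Het section, and in 4 Y-linked genes, with 2900 UMIs against 1. Genotype, animal and these sex-linked transcripts cannot be told apart.

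The transcript that chose the spots belongs to a set of near-identical copies, so its sequence bears on what was counted. All 39 Ccl21a UMIs of the PD1 KO section and all 228 of the PD1 Het section fell on 1 gene, ENSMUSG00000094686, on the minus strand at chr4:42772860-42773993 (GRCm38). A second row of the same name and the rows of Ccl21b and Ccl21c held 0 UMIs. The predicted genes Gm21541 (870 bases) and Gm13304 (837 bases) share 80.6% and 79.5% of all 31-base stretches of the Ccl21a transcript, and both were also at 0 UMIs. Gm21541 differs from Ccl21a at 6 aligned bases, 2 of them in the coding sequence, and Gm13304 at 5, 2 of them coding. The coding differences are T159A in exon 2 and C269T in exon 3, counted from the 5′ end of the Ccl21a transcript. They are shown because they are the coding letters that tell the copies apart. Outside the coding sequence C640T, T812C and G856A differ in both copies, and G24A in Gm21541. Which of these bases the counted reads covered was not examined. The capital marks the base that differs:
Ccl21a, exon 2, chr4:42773735-42773759, minus strand: tgatggagggggTcaggactgctgc
Gm21541, exon 2, chr4:41903844-41903868, plus strand: tgatggagggggAcaggactgctgc
Gm13304, exon 2, chr4:42115018-42115042, plus strand: tgatggagggggAcaggactgctgc
Ccl21a, exon 3, chr4:42773524-42773548, minus strand: gttctCaccccggaagcactctaag
Gm21541, exon 3, chr4:41904055-41904079, plus strand: gttctTaccccggaagcactctaag
Gm13304, exon 3, chr4:42115229-42115253, plus strand: gttctTaccccggaagcactctaag
How reads that match several copies were assigned is not given in the sources used here, so the Ccl21a count may hold transcripts of the other copies.

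Ccl21a was rarer in the PD1 KO section on each measure taken. It had 39 UMIs, or 1.66 CPM (1.18 to 2.27), in the PD1 KO section and 228 UMIs, or 17.8 CPM (15.6 to 20.3), in the PD1 Het section. The log2 ratio of PD1 KO over PD1 Het was -3.42 (-3.95 to -2.93). By spots, 1.76% (exact binomial 0.990 to 2.89) of PD1 KO spots and 4.81% (3.44 to 6.52) of PD1 Het spots held it. PD1 KO spots were the deeper ones, and after thinning every spot to 10000 UMIs the shares were 1.07% (9 of 839 spots) and 3.43% (26 of 759 spots).

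A few spots carried most of the signal. The 15 PD1 KO spots held 10, 7, 5, 4, 2 and 2 UMIs and then 9 spots with 1 UMI. The highest PD1 Het spots held 55, 31, 25, 15, 13, 13 and 12 UMIs, and 22 of 39 had 1. The 3 highest spots held 56.4% of Ccl21a UMIs in the PD1 KO section and 48.7% in the PD1 Het section. At the threshold itself, 31 spots sat just inside with 1 UMI and 1608 just outside with none. Depth was not even across it: 6 of 15 PD1 KO spots and 31 of 39 PD1 Het spots with Ccl21a lay at or above the median depth of their section.

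**Figure D1:**
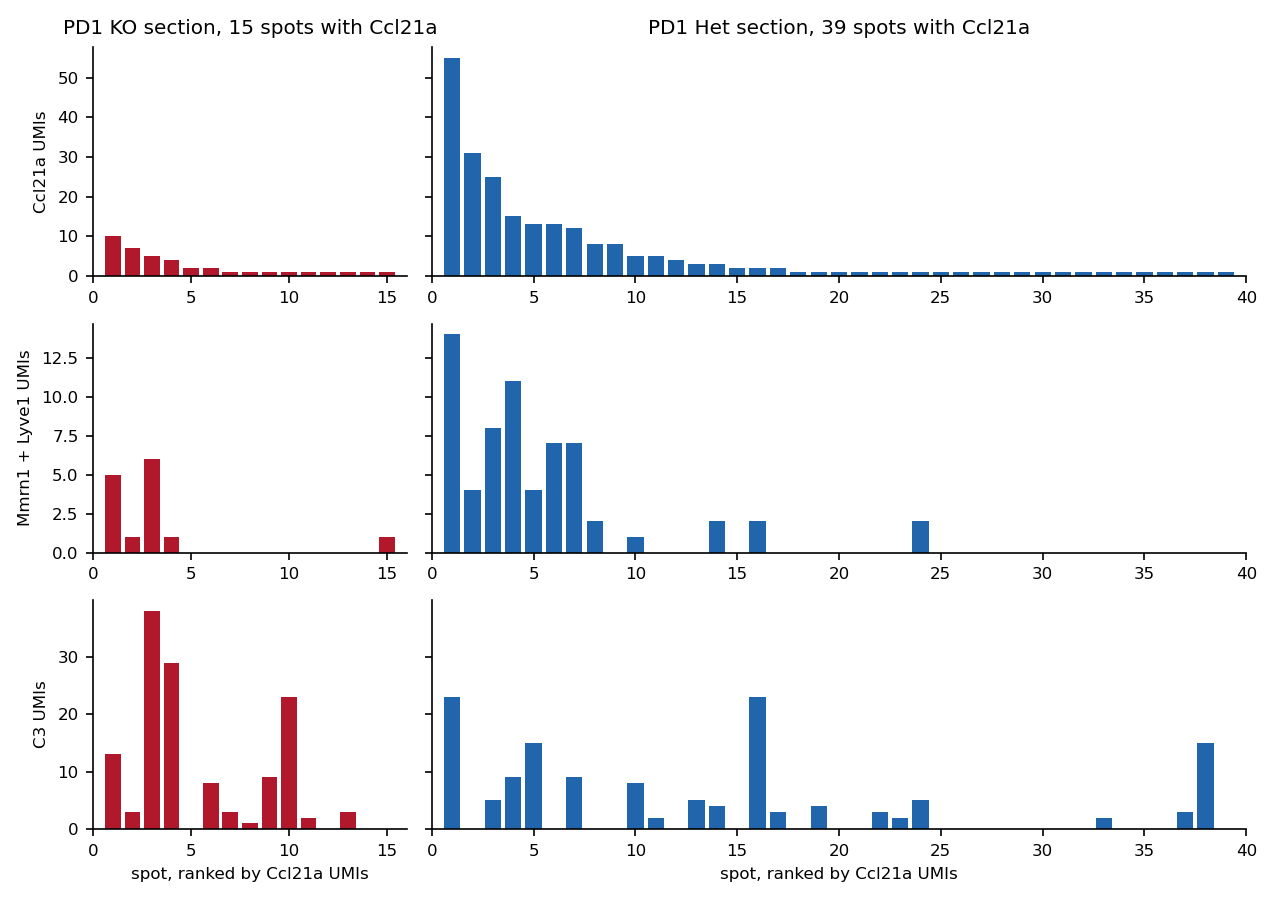
UMIs of Ccl21a (top), of Mmrn1 and Lyve1 together (middle) and of C3 (bottom) in each of the 54 spots with Ccl21a, 1 bar per spot, ranked by Ccl21a within the PD1 KO section (left) and the PD1 Het section (right). Ccl21a reaches 10 UMIs in PD1 KO spots and 55 in PD1 Het spots, and most bars for Mmrn1 and Lyve1 stand among the spots with at least 2 Ccl21a UMIs.

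Mmrn1 and Lyve1 bore out the name for many spots with at least 2 Ccl21a UMIs, and for few with 1. The summed lymphatic list did so only in the PD1 Het section. Mmrn1 (multimerin 1, secreted by lymphatic endothelium) or Lyve1 (a hyaluronan receptor of lymphatic capillaries and some macrophages) was present in 15 of 23 spots with at least 2 Ccl21a UMIs. The same was true of 2 of 31 spots with 1 Ccl21a UMI and of 76 of 1608 spots with none. These counts pool the sections. With at least 2 Ccl21a UMIs it was 4 of 6 PD1 KO and 11 of 17 PD1 Het spots. With 1 it was 1 of 9 and 1 of 22, and with none 47 of 836 and 29 of 772. Mmrn1 and Lyve1 occurred together in 2 PD1 KO and 8 PD1 Het spots with Ccl21a and in 0 spots without it. The 15 lymphatic genes other than Ccl21a summed to 482 CPM (381 to 601) in PD1 KO spots with at least 2 Ccl21a UMIs. PD1 KO spots with none had 389 CPM, inside that interval, and the PD1 Het values were 728 (644 to 820) and 276 CPM. Prox1 had 18.3 and 51.6 CPM in the same PD1 KO classes, and 34.8 and 29.4 CPM in the PD1 Het ones. In 34 of the 54 spots, 27 of them with 1 Ccl21a UMI, none of Mmrn1, Lyve1, Tbx1 and Reln, the lymphatic genes with the highest ratios, was seen. The set is therefore called spots with Ccl21a and not lymphatic vessels.

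Mmrn1 had the highest ratio of the lymphatic genes in both sections. It had 10 UMIs in PD1 KO spots with Ccl21a and 5 in all others, a log2 CPM ratio of 6.73 (5.05 to 8.63). In the PD1 Het section it had 31 and 7 UMIs, a log2 ratio of 6.10 (4.88 to 7.52). The PD1 KO transcripts lay in 8 spots, 3 of them with Ccl21a, and the PD1 Het transcripts in 17 spots, 10 of them with Ccl21a. Within the 54 spots it followed the Ccl21a count. In spots with at least 2 Ccl21a UMIs Mmrn1 reached 61.0 CPM in the PD1 KO section and 82.9 CPM in the PD1 Het section. It was at 0 UMIs in spots with 1 Ccl21a UMI in both, and at 0.217 and 0.582 CPM in spots with none.

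Lyve1 was also higher with Ccl21a in both sections. It had 4 UMIs in PD1 KO spots with Ccl21a and 43 in the others, a log2 CPM ratio of 2.30 (0.36 to 3.76), and 33 against 26 UMIs in the PD1 Het section, 4.29 (3.51 to 5.09). Of the 46 PD1 KO spots with Lyve1, 4 held Ccl21a, and of the 32 PD1 Het spots with Lyve1, 10 did. Tbx1, a transcription factor needed for lymphatic growth in mice, was rare but concentrated, with 3 UMIs in PD1 KO spots with Ccl21a and 3 in the others (log2 ratio 5.73, 2.83 to 8.63), and 8 against 3 in the PD1 Het section (5.36, 3.30 to 7.91). Reln, a secreted glycoprotein made by lymphatic endothelium, had log2 ratios of 1.44 (-1.65 to 3.39) in the PD1 KO section and 2.58 (1.48 to 3.58) in the PD1 Het section.

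The genes of lymphatic identity and growth gave a different picture. Flt4 had 9 UMIs in PD1 KO spots with Ccl21a and 341 in the others, a log2 ratio of 0.49 (-0.66 to 1.43). In the PD1 Het section it had 22 and 112, a ratio of 1.60 (0.87 to 2.27). Pdpn, the membrane glycoprotein podoplanin, had ratios of 0.60 (-1.04 to 1.85) and 1.20 (0.13 to 2.12) in the PD1 KO and PD1 Het sections. Prox1 was not higher in either section, at -0.49 (-1.30 to 0.22) in the PD1 KO section and -0.20 (-0.93 to 0.45) in the PD1 Het section. Prox1 had 1192 UMIs in PD1 KO spots without Ccl21a and 354 in PD1 Het ones. The spots with Ccl21a held 1.32% and 5.35% of its UMIs. They are a small part of each section, so most UMIs of nearly any gene lie outside them. Heart muscle cells are also known to express Prox1. Fgl2 and Nrp2 (the VEGF-C co-receptor) had log2 ratios of -0.08 and 0.08 in the PD1 KO section, and of 0.97 and 0.67, with intervals above 0, in the PD1 Het section. Itga9, Sox18, Sema3d and Nts had intervals that held 0 in both sections. Foxc2, a regulator of lymphatic valves, had 0 UMIs in PD1 KO spots with Ccl21a against 124 in the others, and 3 against 46 in the PD1 Het section.

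Of the 15 lymphatic genes other than Ccl21a, 3 in the PD1 KO section (Mmrn1, Tbx1 and Lyve1) and 9 in the PD1 Het section had intervals above 0, and none had one below 0. Over all genes with a UMI, the interval was above 0 for 3.08% of 18135 genes in the PD1 KO section and for 2.34% of 17029 in the PD1 Het section, and below 0 for 2.19% and 3.17%. Only 5 of the 15 passed the filter of 10 UMIs expected in the spots with Ccl21a, and their median log2 ratio was -0.08 in the PD1 KO section and 0.24 in the PD1 Het section, beside medians of -0.05 and -0.07 over all genes that passed. The genes with the highest ratios were too rare to pass it.

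**Figure D2:**
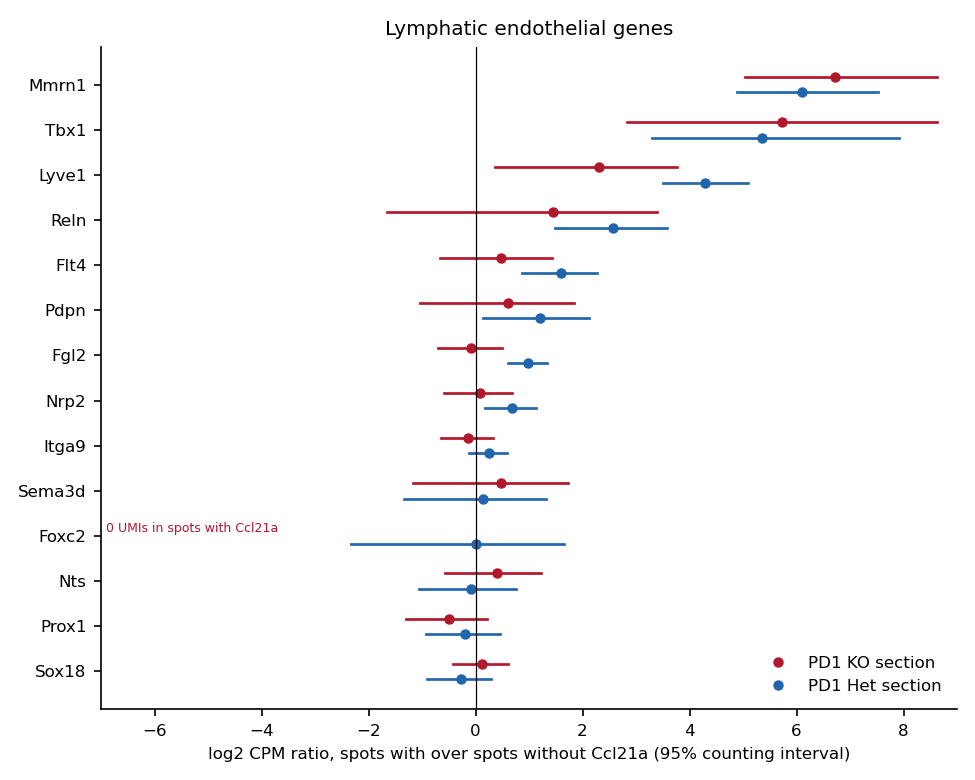
Log2 CPM ratio, spots with over spots without Ccl21a (horizontal axis, 95% counting intervals), for 14 lymphatic genes, with the PD1 KO section and the PD1 Het section as separate points. Mmrn1 lies highest at 6.73 and 6.10, Prox1 lies below 0 in both, and Foxc2 has no PD1 KO point because it had 0 UMIs there.

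The complement gene C3 was the most enriched of the abundant genes. C3, the central protein of the complement cascade, had 132 UMIs in PD1 KO spots with Ccl21a and 1092 in the others, a log2 CPM ratio of 2.68 (2.41 to 2.94). In the PD1 Het section it had 140 and 273 UMIs, a ratio of 2.98 (2.68 to 3.28). It was present in 11 of 15 PD1 KO spots and 18 of 39 PD1 Het spots with Ccl21a. Of the genes that passed the filter, 3.05% were at least 1.5-fold higher with Ccl21a in the PD1 KO section and 2.31% in the PD1 Het section. The share higher in both was 0.163%, 9 of 5538 genes. The shares at least 1.5-fold lower were 7.8% and 8.7%, and 0.74% (41 genes) in both.

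Of the 20 genes ranked highest by the section nearer to no change, C3, Kdm4a, Xpo6 and Ptn had intervals above 0 in both sections. The ranking used these same ratios, so the intervals are a description only. Lower bounds in the PD1 KO and PD1 Het sections were 0.059 and 0.029 for Kdm4a and 0.105 and 0.029 for Xpo6. Over 16402 genes with a UMI in both sections, 0.262% lay above 0 in both and 0.421% below. Ptn, the heparin-binding growth factor pleiotrophin, had 149 UMIs in PD1 KO spots with Ccl21a and 5436 in the others, a log2 ratio of 0.54, and 166 against 1787 in the PD1 Het section, 0.52. Thy1, a surface glycoprotein of T cells and fibroblasts, had ratios of 0.68 and 0.79, Dab2, an endocytic adaptor, 0.53 and 0.70, and Bambi, a decoy receptor of TGF-β signalling, 0.56 and 0.85 in the PD1 KO and PD1 Het sections, each with an interval that held 0 in the PD1 KO section. Of the 10 ranked lowest, Spp1, Phlda1, Qsox1 and Pi16 had intervals below 0 in both. Spp1 (osteopontin, made by macrophages and scar cells after infarction) had 5 UMIs in PD1 KO spots with Ccl21a and 686 in the others, a ratio of -1.37, and 2 against 217 in the PD1 Het section, -2.81. Pi16, a marker of adventitial fibroblasts, had ratios of -0.81 and -1.34.

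Some transcripts of the mesothelium, the cell layer that covers the heart, were higher with Ccl21a in both sections. The full list of 9 markers had summed log2 ratios of 0.74 (0.39 to 1.07) in the PD1 KO section and 0.77 (0.46 to 1.07) in the PD1 Het section. Msln (mesothelin) had 17 UMIs in PD1 KO spots with Ccl21a against 327 in the others, and 20 against 112 in the PD1 Het section, a log2 ratio of 1.46 in each. Upk3b (uroplakin 3B) had 2.17 in the PD1 KO section and 2.46 in the PD1 Het section, but -0.11 in PD1 KO spots at or above the median depth. With Upk1b and Lrrn4 added, the 4 genes had summed ratios of 1.76 (1.20 to 2.28) in the PD1 KO section, where 1 spot held 14 of the 32 UMIs and the ratio without it was 1.02 (0.25 to 1.70), and 1.99 (1.49 to 2.46) in the PD1 Het section. At least 1 of the 4 was seen in 7 of 15 PD1 KO spots with Ccl21a and 238 of 836 without it, and in 14 of 39 against 82 of 772 in the PD1 Het section. These 4 were picked from the 9 mesothelium markers after their values were seen. Of all 9, 3 in the PD1 KO section and 4 in the PD1 Het section had intervals above 0, and Wt1, Krt8 and Krt18 were not among them. Over all genes with a UMI the shares above 0 were 3.08% and 2.34%. Wt1 had ratios of -0.16 and 0.41, Krt8 -0.62 and 0.44 and Krt18 0.31 and -0.25 in the PD1 KO and PD1 Het sections.

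C3 was highest where both kinds of transcript met. In the PD1 KO section it reached 645 CPM in spots with Ccl21a and a mesothelium UMI and 76.5 CPM in spots with Ccl21a alone, beside 112 CPM in spots with a mesothelium UMI alone and 21.5 CPM in spots with neither. The PD1 Het values in that order were 359, 46.8, 145 and 6.85 CPM. C3 was higher with Ccl21a inside each class in both sections, but the classes record only whether a mesothelium UMI was seen and do not match its amount. The PD1 KO spots with such UMIs held 32 in 7 spots with Ccl21a and 500 in 238 without it. The PD1 Het ones held 47 in 14 and 183 in 82. Single PD1 KO spots held 38, 29 and 23 of the 112 C3 UMIs in the highest class. Mmrn1 reached 34.5 CPM in PD1 KO spots with Ccl21a and a mesothelium UMI and 15.3 CPM in those without one, and 57.4 and 26.7 CPM in the PD1 Het spots. The part of the mesothelium in these values was not tested further.

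**Figure D3:**
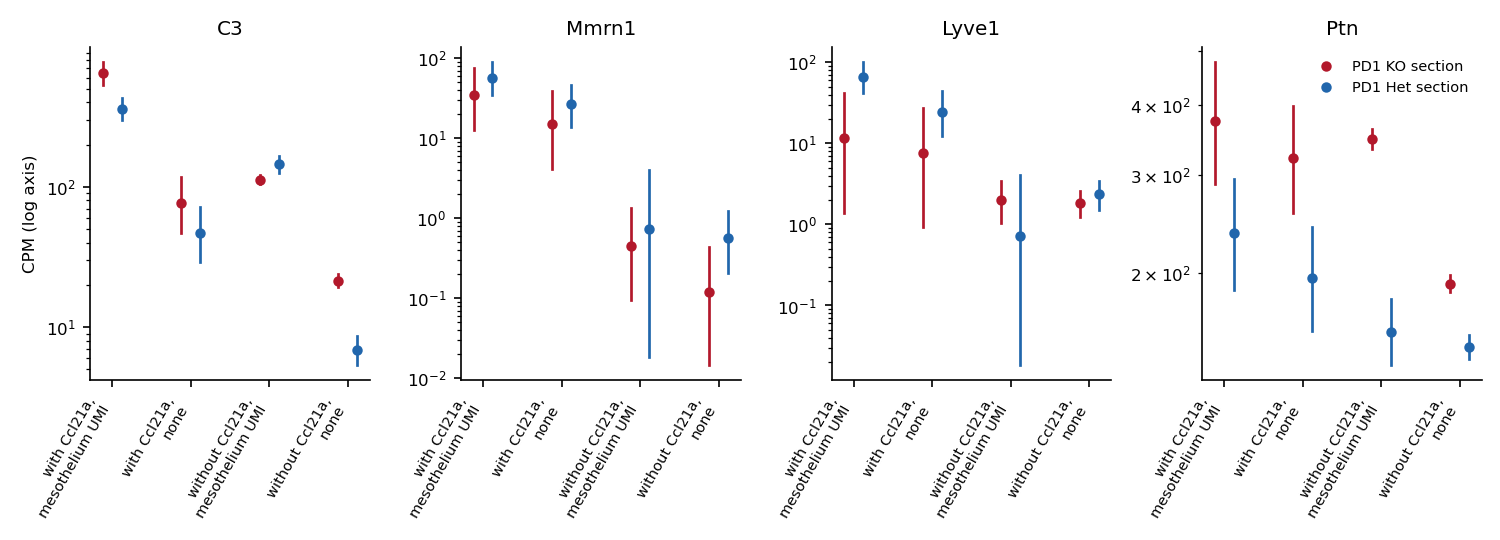
CPM (log axis, 95% counting intervals) of C3, Mmrn1, Lyve1 and Ptn in spots with or without Ccl21a and with or without a UMI of Msln, Upk3b, Upk1b or Lrrn4, for the PD1 KO and PD1 Het sections. C3 is highest in spots with both, at 645 CPM in the PD1 KO section and 359 CPM in the PD1 Het section.

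CCR7, the receptor of CCL21, and the genes of antigen presentation were higher with Ccl21a in the PD1 KO section. Ccr7 had 14 UMIs in PD1 KO spots with Ccl21a, 10 and 4 of them in 2 spots, and 21 in the others, a log2 ratio of 5.14 (4.06 to 6.19), and 0 against 4 in the PD1 Het section. The MHC class II genes H2-Aa, H2-Ab1, H2-Eb1 and Cd74, which present antigen to helper T cells, together had 201 and 1958 UMIs in the PD1 KO section, a ratio of 2.44 (2.23 to 2.65). In the PD1 Het section they had 23 and 388 UMIs, a ratio of -0.13 (-0.80 to 0.48). Of PD1 KO spots, 4 of 15 with Ccl21a (26.7%) and 46 of 836 without it (5.50%) held at least 10 UMIs of these genes, and of PD1 Het spots 0 of 39 and 5 of 772 (0.648%). Those 4 PD1 KO spots held 191 of the 201 UMIs. By Ccl21a count the PD1 KO level was 573 CPM in spots with at least 2 UMIs, 394 CPM in spots with 1 and 84.8 CPM in spots with none, and the PD1 Het level was 26.8, 32.0 and 32.2 CPM. These 4 genes were taken from a list of 9 MHC class II and dendritic cell genes after their values were seen. The full list had 210 and 2384 UMIs in the PD1 KO section, a ratio of 2.22 (2.01 to 2.43). In the PD1 Het section it had 33 and 567 UMIs, a ratio of -0.15 (-0.71 to 0.35).

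A single PD1 KO spot carried much of the Ccr7 and MHC class II signal of the spots with Ccl21a. It had 17698 UMIs in all, 5 of Ccl21a, 5 of Mmrn1 and 38 of C3. It held 10 of the 35 Ccr7 UMIs and 155 of the 243 Ccl5 UMIs of its section, together with 8 of 32 UMIs of Ccl22 and 12 of 2750 of Fscn1, genes that mature dendritic cells express. Over all PD1 KO spots with Ccl21a, Fscn1 was not higher, at 115 CPM against 117 CPM in the others. Cd74 had 37 UMIs in the single spot. The T cell receptor gene Trac and Cd3e were at 0 in it and Cd3d at 1, while Il2rb, of T and natural killer cells, had 3 of the 17 UMIs of the section and Klrd1 and Cxcr3 had 1 each. Without this spot the MHC class II ratio of the PD1 KO section was 1.88. The T cell list had 10 UMIs in PD1 KO spots with Ccl21a and 125 in the others, a log2 ratio of 2.08 (0.99 to 3.01), or 1.14 (-0.50 to 2.41) without the spot that held 5 of the 10. In the PD1 Het section it had 2 against 56, a ratio of -0.86 (-3.94 to 1.06). Ackr4, which encodes a scavenging receptor for CCL21, had 1 UMI in PD1 KO spots with Ccl21a and 124 in the others, and 0 against 67 in the PD1 Het section.

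**Figure D4:**
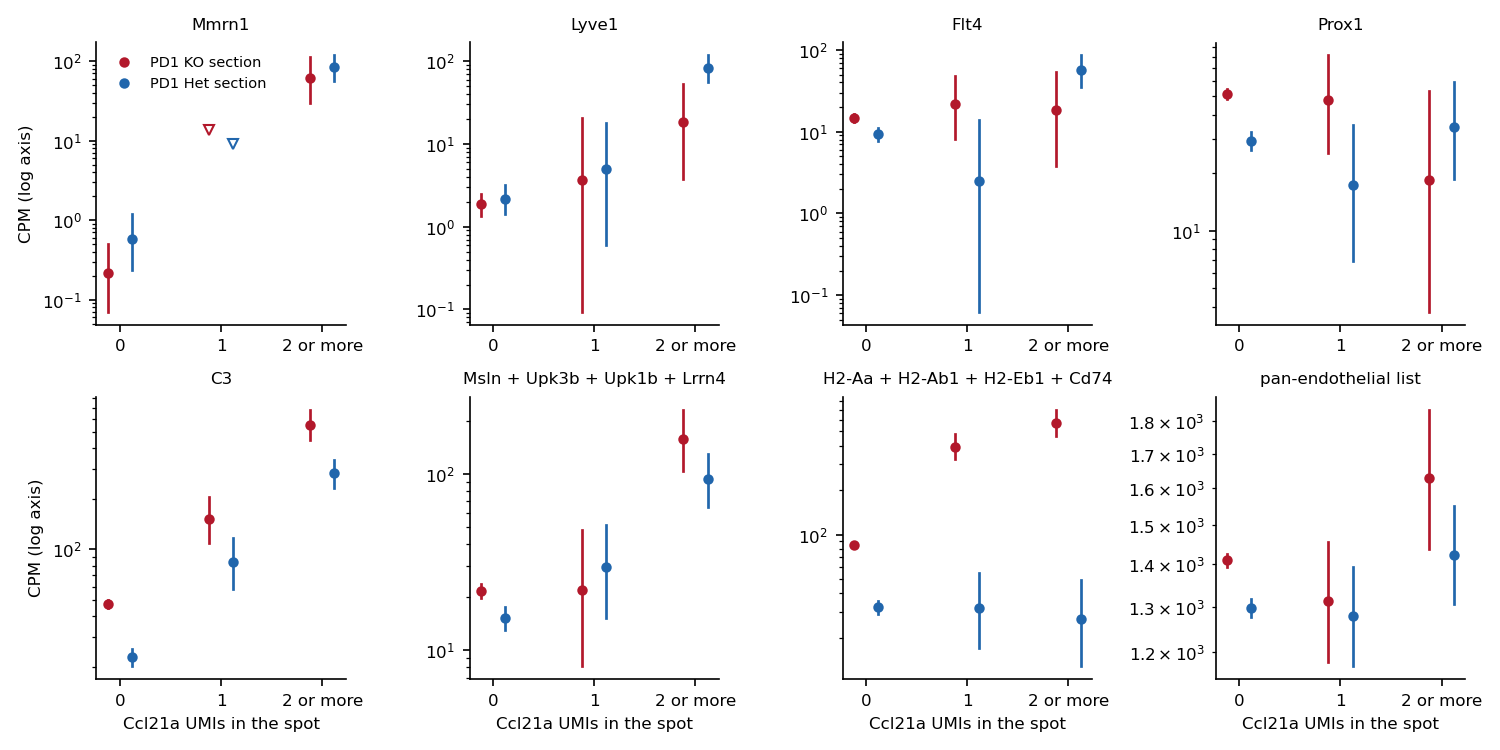
CPM (log axis, 95% counting intervals) of lymphatic, mesothelium and MHC class II genes in spots with 0, 1, and at least 2 Ccl21a UMIs, for the PD1 KO and PD1 Het sections. An open triangle marks the upper end of the 95% interval where 0 UMIs were counted, as for Mmrn1 in spots with 1 Ccl21a UMI. Mmrn1 reaches 61.0 and 82.9 CPM in the highest class.

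The summed macrophage list differed in direction between the sections, but not each of its genes did. The list of 10 had a summed log2 ratio of 0.94 (0.78 to 1.09) in the PD1 KO section, and 0.62 without its highest spot, and of -0.41 (-0.64 to -0.19) in the PD1 Het section. C1qa, a chain of complement C1q, had 1.13 and -0.10, Ctss (cathepsin S) 1.18 and -0.93, and Lyz2 (lysozyme) 0.64 and -0.60 in the PD1 KO and PD1 Het sections. All 10 genes had ratios above 0 in the PD1 KO section, 7 of them with intervals above 0, beside 3.08% of all detected genes. In the PD1 Het section Adgre1 (F4/80), Cd68 and Mpeg1 were also above 0, at 0.69, 0.80 and 0.33 against 0.61, 0.98 and 1.42 in the PD1 KO section, with PD1 Het intervals that held 0. Resident macrophages can also express Lyve1, and their list of 8 other genes had summed ratios of 0.34 and 0.30. Without the highest spot of each section the sums were 0.26 (-0.05 to 0.56) and 0.19 (-0.06 to 0.42). In the PD1 Het section Stab1 alone gave 90 of the 170 UMIs of that list, at 115 CPM with Ccl21a and 63.6 CPM without it. Gas6 was also higher there, at 77.0 against 67.2 CPM. F13a1 (6.41 against 15.4 CPM), Cbr2 (2.57 against 8.48 CPM) and Mrc1 (10.3 against 14.4 CPM) were lower. Of the 8 genes, 1 had an interval above 0 in the PD1 Het section and 1 had one below 0. Over all genes with a UMI those shares were 2.34% and 3.17%. The part of resident macrophages in the Lyve1 values was not tested.

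The pan-endothelial list had summed ratios of 0.02 in the PD1 KO section and 0.06 in the PD1 Het section, the capillary list -0.11 and -0.04 and the ventricular cardiomyocyte list -0.10 in both. The venous list had 0.16 (-0.09 to 0.41) in the PD1 KO section and -0.38 (-0.62 to -0.15) in the PD1 Het section, and the arterial list 0.23 (-0.08 to 0.52) and -0.37 (-0.69 to -0.06). Smooth muscle genes were lower with Ccl21a, at -0.58 in the PD1 KO section and -0.32 in the PD1 Het section, with Acta2 at -0.72 and -0.44. Gsn (gelsolin) had -0.58 and -0.87 and Cd34, of capillaries and adventitial fibroblasts, -0.54 and -0.44. Col1a1 and Col3a1, the fibrillar collagens of fibroblasts, had 0.37 and 0.26 in the PD1 KO section and 0.42 and 0.39 in the PD1 Het section, but the summed fibroblast list of the PD1 KO section, at 0.21, was at -0.07 without its highest spot. The 7 VEGF-C signalling genes, of which Flt4 and Nrp2 are also in the lymphatic list, together had 0.07 (-0.23 to 0.35) and 0.46 (0.24 to 0.67). In the PD1 Het section 2 of the 7 had intervals above 0, beside 2.34% of all genes with a UMI. Cell cycle genes had -0.62 (-0.89 to -0.36) in the PD1 KO section and 0.06 in the PD1 Het section. Haemoglobin transcripts followed 1 PD1 KO spot, which held 10 Ccl21a UMIs, 17 of Vwf and 5588 of the 8306 haemoglobin UMIs in PD1 KO spots with Ccl21a. The red blood cell list had 1.33 with this spot and -0.13 without it, and -0.49 in the PD1 Het section. Genes of lymph node and thymus had 0 UMIs in PD1 KO spots with Ccl21a and 2 in PD1 Het ones.

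**Figure D5:**
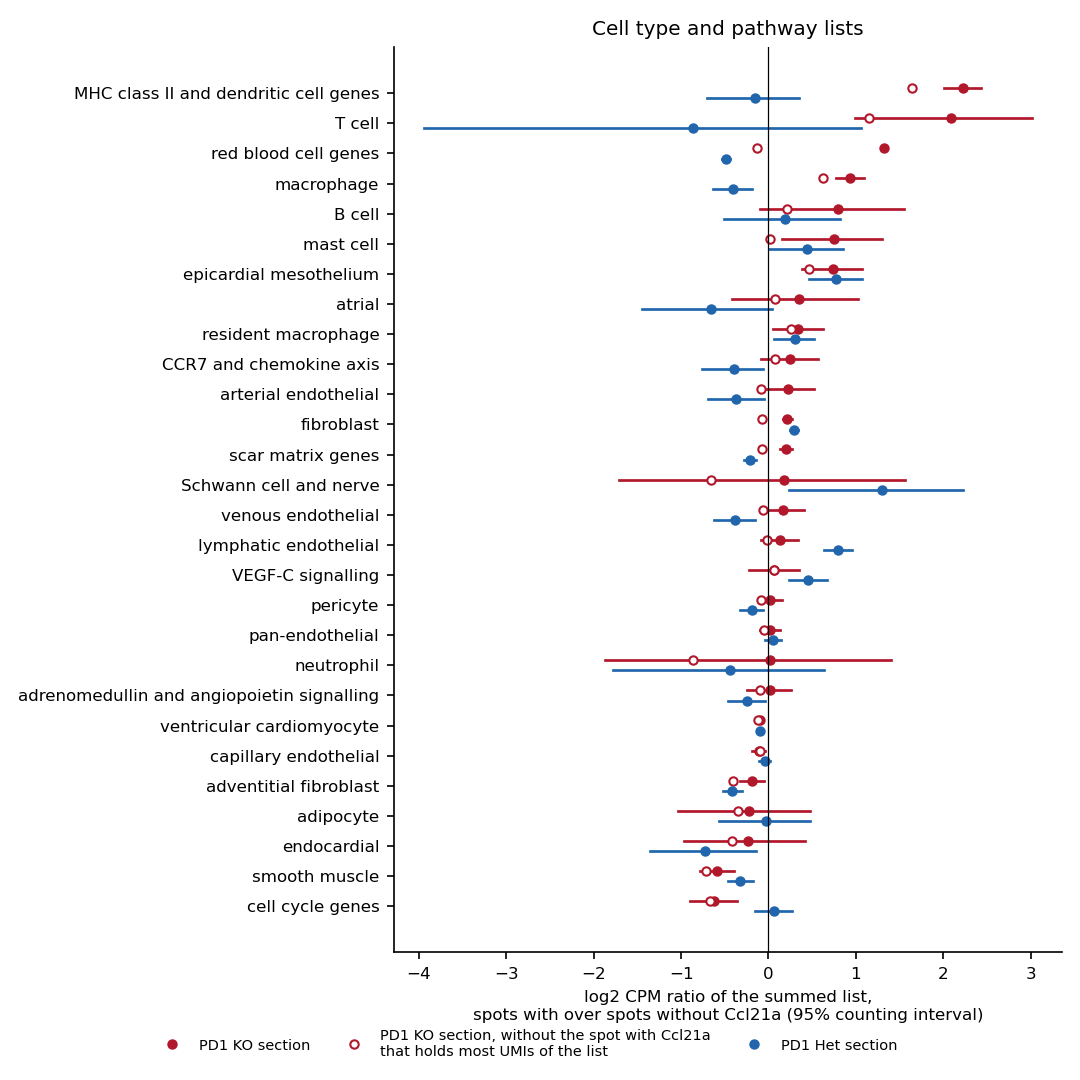
Log2 CPM ratio of each summed gene list, spots with over spots without Ccl21a (horizontal axis, 95% counting intervals), for the PD1 KO and PD1 Het sections. Open circles leave out the PD1 KO spot with Ccl21a that holds most UMIs of the list, and the red blood cell list then lies below 0, at -0.13, and not at 1.33.

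Between the genotypes, a few lymphatic genes of the whole sections followed Ccl21a, and most of the list lay on the other side of no change. Lyve1 had 2.00 CPM in the PD1 KO section and 4.60 CPM in the PD1 Het section (log2 ratio -1.20, -1.79 to -0.63). Mmrn1 had 0.638 and 2.97 CPM (-2.22, -3.19 to -1.32). Tbx1 had 0.255 and 0.858 CPM (-1.75, -3.47 to -0.19) and Reln 1.74 and 3.36 CPM (-0.94, -1.60 to -0.29). Flt4, at 14.9 and 10.5 CPM (0.51), and Prox1, at 51.4 and 29.2 CPM (0.82), lay on the other side of no change. So did Sox18 (0.86), Nrp2 (0.48), Foxc2 (0.46), Nts (0.37), Fgl2 (0.28), Itga9 (0.27), Sema3d (0.25) and Pdpn (0.21). The intervals of Foxc2, Sema3d and Pdpn held 0. Over the 5538 genes that passed the filter the median ratio of the whole sections was 0.29, as it was within the spots with Ccl21a and within the others, and these values are read against that shift.

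Inside the spots with Ccl21a the lymphatic genes other than Ccl21a summed to 425 CPM in the PD1 KO section and 480 CPM in the PD1 Het section, a log2 ratio of -0.17 (-0.44 to 0.08). In spots without Ccl21a the same ratio was 0.49. Lyve1 had -2.20 (-4.16 to -0.71) and Mmrn1 -0.79 (-1.98 to 0.27) inside. The MHC class II genes had 3.97 (3.34 to 4.66) inside and 1.40 in the other spots, the macrophage list 1.80 and 0.45, and C3 0.76 and 1.06. Of genes that passed the filter, 27.5% were at least 1.5-fold higher and 4.03% lower in PD1 KO than in PD1 Het spots with Ccl21a, against 16.3% and 0.397% in the other spots. The spots with Ccl21a hold far fewer UMIs, and the counting error of each ratio is larger there.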

How the data were processed

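Per the file headers, the deposited matrices hold raw UMI counts from Space Ranger 1.1.0, 1 count per gene and spot, with no normalization; the genome builds mm10 and GRCm38 are named in the submitters' processing notes. The authors' spot positions and images were not used here, so nothing is said of where a spot lay. Spots with at least 500 UMIs were kept and no doublet caller was run. UMIs were summed over spots with and without Ccl21a in each section and divided by the summed total (CPM). Ratios have exact conditional intervals, CPM values exact Poisson intervals and shares exact Clopper-Pearson intervals, all 95% (Python 3.11.15, numpy 2.4.6, scipy 1.17.1, matplotlib 3.10.9). No p-value was computed. Code was tested on simulated data. Values of 1 gene of the lymphatic list are not reported here; it stays in the counts and sums of that list. A gene passed the filter when 10 UMIs were expected in the spots with Ccl21a, and was called when at least 1.5-fold apart. An upper limit for 0 UMIs is 3 counts in the text, and the upper end of the Poisson interval where a figure marks it. Named genes are the lymphatic list, the 20 highest and 10 lowest ratios, ranked by the section nearer to no change and without sex-linked, haemoglobin, mitochondrial, ribosomal and unnamed genes, and up to 4 members of each of 29 lists; Ccl5, Ccl22, Fscn1 the genes of single spots and the summed sets of 4 mesothelium and 4 MHC class II genes were named after their values were seen. TMM factors came from edgeR 4.0.16 (R 4.3.3). Copies were compared in the GENCODE vM21 transcripts of GRCm38. The rule for the spots and the gene lists were chosen with earlier results of these data known.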

Additional observations from a re-analysis of the deposited data

Results flagged for a closer look

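For 3 gene lists the summed log2 CPM ratio, spots with over spots without Ccl21a, had opposite signs in the sections with both counting intervals clear of 0; the difference between the sections was not tested, since there was 1 section per genotype. The macrophage list had 0.94 in the PD1 KO section and -0.41 in the PD1 Het section. The red blood cell list had 1.33 in the PD1 KO section and -0.49 in the PD1 Het section. The scar matrix list had 0.20 in the PD1 KO section and -0.21 in the PD1 Het section. Without the PD1 KO spot with Ccl21a that held most UMIs of each list, the PD1 KO values were 0.62, -0.13 and -0.08 in the same order.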

How the results depend on the processing

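The log2 ratio of Ccl21a, PD1 KO over PD1 Het, was -3.42 and lay between -3.73 and -3.42 under the 5 alternatives tried for it. The share of spots with Ccl21a, 1.76% in the PD1 KO section, was 0.705% with at least 2 UMIs, 0.470% with at least 3, 0.472% after thinning to 5000 UMIs and 0.590% after thinning to 5000 non-mitochondrial UMIs; the PD1 Het share, 4.81%, was 2.10%, 1.73%, 2.01% and 3.02%, and 3.43% after thinning to 10000 UMIs. Genes at least 1.5-fold higher with Ccl21a in both sections (9) numbered 5 with at least 2 Ccl21a UMIs, 1 in spots at or above the median depth, 1 with 20 UMIs expected, 38 with 5 expected and 1 at a fold of 2. Genes lower in both (41) numbered 13 in spots at or above the median depth, 67 with the mean over spots, 4 with 20 UMIs expected, 154 with 5 and 2 at a fold of 2. Lists with a median past 1.5-fold between PD1 KO and PD1 Het spots with Ccl21a (8) numbered 4 in the deeper spots, 5 without mitochondrial genes and 5 without the highest Ccl21a spot of each section. Between the same spots 27.5% of single genes were at least 1.5-fold higher and 4.03% lower, with a median log2 ratio of 0.29. For spots with against spots without Ccl21a, 0 lists had a median past the fold in both sections. Lyve1 in the PD1 Het section went to 5.26 with at least 2 Ccl21a UMIs, and the lymphatic median there to 0.97 with members of at least 10 UMIs, an alternative chosen after seeing the data. Among 1161 values of single genes and lists, 1071 stayed, 86 moved and 4 reversed: in the PD1 KO section Upk3b was -0.11 in the deeper spots, Pdpn -0.078 without the spot with the most Ccr7, also added after seeing the data, and the red blood cell median -0.11 and haemoglobin sum -0.13 without the highest Ccl21a spots. The cause was not tested, beyond the fewer genes or spots that some alternatives keep. No paired analysis was possible because each genotype has 1 section and no test was made. Spots with 1 Ccl21a UMI limit what depth can show.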

Other observations

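All genes were ranked by the counting bound nearest to 0 in both sections, an order chosen after the values were seen. Of 16402 genes, 43 (0.262%) lay above 0 in both, 15 of them mitochondrial or ribosomal, and 69 (0.421%) lay below 0 in both. Another 44 (0.268%) had intervals on opposite sides of 0 in the 2 sections. A few of the genes above 0 in both are given as values, picked by hand and with no theme tested. Itgb7, an integrin chain of lymphocytes and other leukocytes that home to mucosa, had 3 UMIs in PD1 KO spots with Ccl21a and 14 in the others (log2 ratio 3.51), and 6 against 13 in the PD1 Het section (2.83). Cd83, a surface protein of activated dendritic and B cells, had 12 and 171 UMIs (1.90) in the PD1 KO section, 5 of the 12 in the spot with the most Ccr7, and 12 and 73 (1.34) in the PD1 Het section. Coro1a, an actin regulator of leukocytes, had ratios of 1.14 and 1.08, with 7 of its 17 PD1 KO UMIs in 1 spot. The B cell and neutrophil lists had summed ratios of 0.79 and 0.02 in the PD1 KO section and 0.19 and -0.44 in the PD1 Het section, with intervals that held 0.

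The complement gene C2 had 4 UMIs in PD1 KO spots with Ccl21a and 48 in the others (2.14), and 6 against 13 in the PD1 Het section (2.83). Ptx3, a secreted pentraxin of innate immunity, had 3 and 28 UMIs (2.51) in the PD1 KO section and 8 and 14 (3.14) in the PD1 Het section, where 5 of the 8 lay in 1 spot. Selenop, the selenium transport protein, was abundant and had ratios of 0.45 and 0.49. Fabp5 and Mb, the myoglobin of heart muscle, were among the genes lower in both, with Mb at -0.19 and -0.26.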
